A study of Mus musculus with 10 samples.

Results

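The genes described here encode 8 secreted growth factors and trophic cytokines that microglia can make: Igf1, Pdgfa, Pdgfb, Vegfa, Vegfb, Bdnf, Osm and Hgf. They were taken by symbol from this list and matched through the RefSeq gene table to their gene identifiers in the count files. All 8 had counts in all 10 libraries, out of 46152 genes counted, of which 44086 had a count in any library. Microglia, the resident macrophages of the brain, were isolated from C57BL/6J mice aged 8 to 12 weeks. The Vehicle group was gavaged with 0.1% Tween 80 and 0.5% hydroxymethyl propyl-cellulose. The GW2580 group received GW2580, an orally active inhibitor of the CSF1R kinase, in that same carrier for 8 days, at a dose of 80 mg/kg/d. Each group held 5 mice, 2 male (replicates 1 and 2) and 3 female (replicates 3 to 5), with 1 RNA-seq library per mouse.

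Growth factors are secreted proteins that act on neighbouring cells through receptor tyrosine kinases or, for oncostatin M, through receptors that share the gp130 subunit. In the brain, microglia are a known source of IGF-1, which supports neurons and myelin, and of PDGF and VEGF ligands that act on oligodendrocyte precursors, mural cells and endothelium. CSF1R, the receptor for CSF1 and IL-34, carries the survival signal on which microglia depend.

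The libraries held 12550418 to 20854218 fragments assigned to genes in the Vehicle group and 13228819 to 26079343 in the GW2580 group, and the lowest count of any of the 8 genes in any library was 44, for Bdnf in Vehicle 5. The labelled cell type was checked against marker genes given in CPM, the count relative to the TMM-scaled total of the library. The 12 microglial markers summed to between 14586 and 37774 CPM with vehicle and between 19485 and 65140 CPM with GW2580. CD11b beads also bind monocytes and granulocytes, and their 12 markers summed to 18333 CPM in Vehicle 1 but to 786 to 5603 CPM in the other libraries. Vehicle 2 and Vehicle 5 stood apart. Their 8 astrocyte markers summed to 3069 and 1707 CPM, against 195 to 645 CPM elsewhere, and their oligodendrocyte markers to 17906 and 4358 CPM, against 163 to 1779 CPM elsewhere. Vehicle 5 also had the lowest microglial sum and the highest endothelial and mural sums, 135 and 173 CPM, although the endothelial marker Cldn5 was at 0 in all libraries. Single markers held much of these sums, Slco1a4 at 64.4 CPM and Vtn at 87.2 CPM in Vehicle 5. Other markers of the 2 lists went both ways. Pecam1 (39.2 CPM) and Pdgfrb (26.7 CPM) were highest in Vehicle 5, and Flt1 (8.59 CPM) and Rgs5 (2.30 CPM) were lowest there. In RNA from bulk samples, fewer cells of a type and less RNA per cell cannot be told apart.

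**Figure D1:**
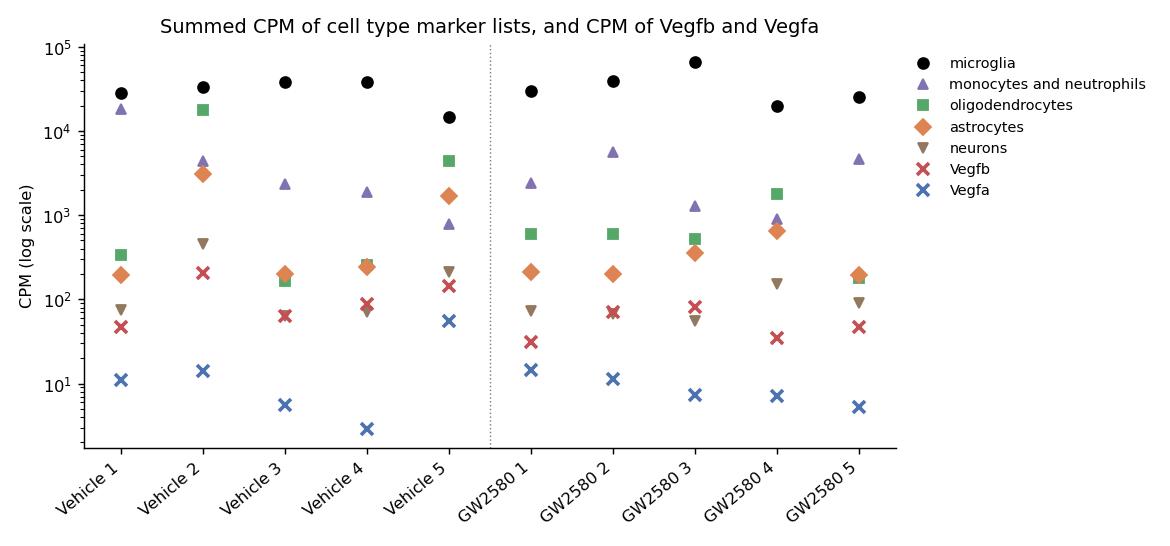
Summed CPM (log scale, one column of symbols per library) of the marker lists of 5 cell types, with the CPM of Vegfb and Vegfa as crosses. The dotted line separates the Vehicle from the GW2580 libraries. Oligodendrocyte and astrocyte sums were highest in Vehicle 2 and Vehicle 5, the libraries with the highest Vegfb, and Vegfa peaked in Vehicle 5. GW2580 4 had the next highest of these sums, but its Vegfb was among the lowest.

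The growth factor genes spanned a wide range of levels. Per exon length, as RPKM averaged over the 10 libraries, the order was Vegfb (63.4), Osm (51.2), Pdgfb (6.31), Pdgfa (5.44), Vegfa (3.22), Igf1 (2.15), Hgf (1.30) and Bdnf (0.993). Vegfb and Osm held the top places, in either order, in every library, and their means were higher in RPKM than 96.6% and 95.7% of the 28419 genes tested, whereas Bdnf exceeded 26.7% of them. Among neighbours in this order, Osm was above Pdgfb in 10 of 10 libraries, Igf1 above Hgf in 9 and Pdgfa above Vegfa in 8. Vegfb was above Osm in 6 libraries, Hgf above Bdnf in 7 and Vegfa above Igf1 in 5, so these neighbours were not separated beyond their spread. Pdgfb was above Pdgfa in 5 libraries, which were the 5 of the GW2580 group. The order of the group means differed for 3 pairs of neighbours. Vegfb was above Osm in Vehicle (85.6 and 43.1 RPKM) and below it in GW2580 libraries (41.2 and 59.2). Pdgfb was below Pdgfa in Vehicle (5.00 and 6.96 RPKM) and above it in GW2580 libraries (7.62 and 3.92). Vegfa was above Igf1 in Vehicle (4.25 and 1.95 RPKM) and slightly below it in GW2580 libraries (2.19 and 2.35).

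**Figure D2:**
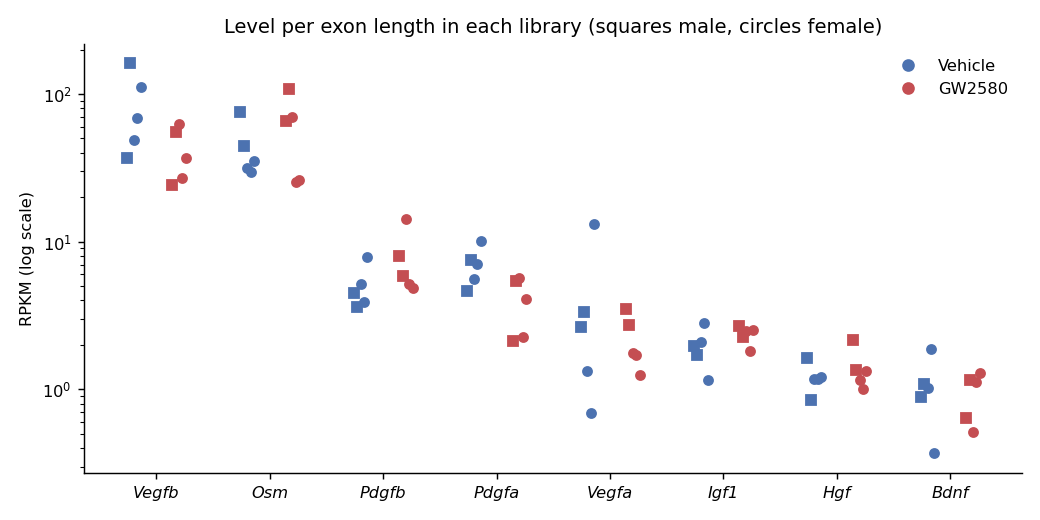
RPKM (log scale) of each gene in each library, ordered by the mean over 10 libraries, with blue for Vehicle, red for GW2580, squares for male and circles for female mice. Vegfb and Osm lie above the other 6 genes, and Pdgfb and Pdgfa overlap over the 10 libraries.

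The comparison of GW2580 with vehicle asked whether oral CSF1R inhibition was accompanied by other levels of these transcripts. Of the 8 genes, 1 passed the criterion of a fold change over 2 with an unadjusted p under 0.05 in edgeR's quasi-likelihood test, which is 12.5% against the 10.7% of all tested genes that passed it. That gene was Vegfb, called lower with GW2580, a direction taken by 6.7% of all tested genes, and 0 of the 8 were called higher, against 4.01%. Pdgfa had p under 0.05 at less than 2-fold, so 2 of 8 genes had an unadjusted p under 0.05, against 14.7% of all tested genes. No gene of the 8, and 0 of 28419 tested, had a Benjamini-Hochberg adjusted p under 0.05 in edgeR, where 4186 had an unadjusted p under 0.05. DESeq2, run on 44086 genes with no filter on low counts, gave 232 genes with an adjusted p under 0.05, and on the filtered genes edgeR's likelihood ratio test 53 and limma-voom 0, with none of the 8 among them. The fold change was positive for 4 of the 8 genes and negative for 4, and for no gene were the groups free of overlap in CPM, as they were for 3.03% of tested genes.

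**Figure D3:**
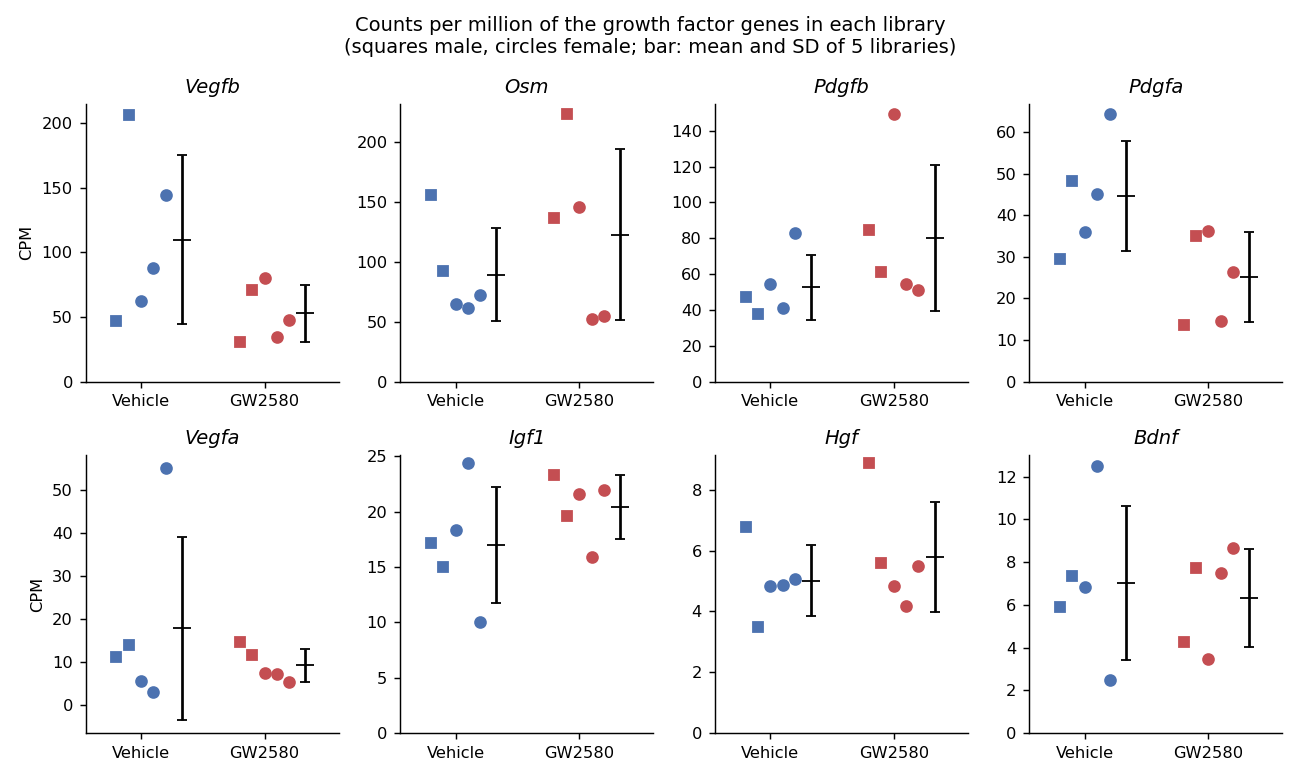
CPM of each gene in the 10 libraries (5 Vehicle, blue; 5 GW2580, red; squares male, circles female), with the mean and SD of each group in black. The groups overlap for all 8 genes, and single libraries such as Vehicle 5 for Vegfa (55.3 CPM) and GW2580 3 for Pdgfb (149 CPM) set much of the spread.

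**Figure D4:**
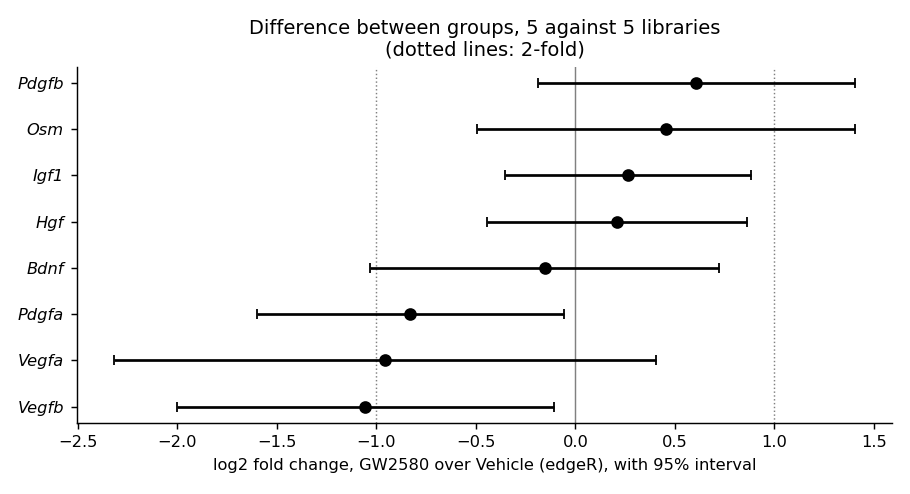
Log2 fold change of GW2580 over Vehicle for each gene (edgeR, 5 against 5 libraries), with its 95% interval and dotted lines at 2-fold. The intervals of Vegfb and Pdgfa lie below 0, and the other 6 span 0.

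Vegfb (NCBI gene 22340, chr19:6982472-6987651, minus strand of GRCm38.p6, the build of all positions given here) encodes VEGF-B, a ligand of VEGFR1 and neuropilin-1 known for effects on lipid uptake and cell survival more than on vessel growth. Its CPM in Vehicle 1 to 5 was 47.2, 206, 62.7, 88.0 and 144, and in GW2580 1 to 5 it was 30.9, 70.9, 80.5, 34.4 and 47.3. Vehicle 2, 4 and 5 were above every GW2580 library, GW2580 1 and 4 were below every Vehicle library, and the others overlapped. The Vehicle mean was 110 ± 65.4 CPM and the GW2580 mean 52.8 ± 22.0 CPM (SD, n = 5 each). In edgeR the log2 fold change was -1.06 ± 0.44 (SE), with an unadjusted p = 0.0316 and an adjusted p = 0.304, and p = 0.0952 in a two-sided exact permutation test on log2 CPM, for which 5 against 5 libraries allow no p below 0.00794. The highest Vegfb levels were in Vehicle 2 and Vehicle 5, the libraries high in glial markers, but the other libraries did not all follow this order. GW2580 4 had the next highest oligodendrocyte and astrocyte sums (1779 and 645 CPM) with Vegfb at 34.4 CPM. Vehicle 4, with sums of 255 and 241 CPM, had Vegfb at 88.0 CPM. Without Vehicle 2 and Vehicle 5 the log2 fold change of Vegfb was -0.33 (edgeR, adjusted p = 0.685). The call was also lost without Vehicle 2 (-0.70), Vehicle 5 (-0.94), GW2580 1 (-0.90) or GW2580 4 (-0.93) alone, and with the glial and neuronal marker level in the model (-0.61). The fold change of Vegfb stayed negative in all 24 alternatives.

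Vegfa (NCBI gene 22339, chr17:46016993-46032377, minus strand) encodes VEGF-A, the main angiogenic ligand of VEGFR2 and a gene induced by hypoxia. Vegfa measured 11.1, 14.0, 5.51, 2.87 and 55.3 CPM in Vehicle 1 to 5 and 14.5, 11.5, 7.39, 7.10 and 5.21 CPM in GW2580 1 to 5. Vehicle 5 was the highest and Vehicle 4 the lowest of all 10, so that the GW2580 libraries lay within the vehicle range. Between these extremes the vehicle values differed by 19.3-fold, the widest range of the 8 genes. With all libraries the log2 fold change was -0.96 ± 0.64 (SE; edgeR, adjusted p = 0.482), and it turned to 0.13 without Vehicle 5. The means were 17.8 ± 21.4 and 9.14 ± 3.78 CPM (SD, n = 5 each), and exact permutation gave p = 0.722.

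PDGF-A and PDGF-B, encoded by Pdgfa and Pdgfb, form homo- and heterodimers. PDGF-A dimers act on PDGFRα, the receptor of oligodendrocyte precursors, whereas PDGF-B also acts on PDGFRβ of pericytes and smooth muscle. Pdgfa lies at chr5:138976014-139000792, minus strand (NCBI gene 18590), and Pdgfb at chr15:79995865-80024614, minus strand (NCBI gene 18591). Pdgfa was at 29.5, 48.2, 35.9, 45.1 and 64.3 CPM in Vehicle 1 to 5 and at 13.6, 34.9, 36.2, 14.5 and 26.3 CPM in GW2580 1 to 5. GW2580 1, 4 and 5 were below every Vehicle library, and Vehicle 2, 4 and 5 were above every GW2580 library. The mean was 44.6 ± 13.3 CPM against 25.1 ± 10.8 CPM (SD, n = 5 each), a log2 fold change of -0.83 ± 0.36 (SE; unadjusted p = 0.0366 and adjusted p = 0.315 in edgeR, exact permutation p = 0.0397). The unadjusted p stayed under 0.05 in 16 of 24 alternatives, with log2 fold changes from -0.999 to -0.68. It was 0.05 or more without Vehicle 2 (-0.80), Vehicle 4 (-0.83), Vehicle 5 (-0.66), GW2580 1 (-0.66) or GW2580 4 (-0.68), with the glial and neuronal marker level (-0.72) or the share of fragments on no exon (-0.47) in the model, and without Vehicle 2 and Vehicle 5 together. Over all 24 the adjusted p lay between 0.183 and 0.674. Without Vehicle 2 and Vehicle 5 the log2 fold change was -0.56 (edgeR, adjusted p = 0.459).

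Pdgfb measured 47.0, 37.9, 54.2, 40.9 and 82.9 CPM in Vehicle 1 to 5 and 84.8, 61.1, 149, 54.2 and 51.3 CPM in GW2580 1 to 5. Vehicle 1, 2 and 4 were below every GW2580 library, and GW2580 1 and 3 were above every Vehicle library. Vehicle libraries averaged 52.6 ± 18.0 CPM and GW2580 libraries 80.2 ± 40.9 CPM (SD, n = 5 each). This is a log2 fold change of 0.61 ± 0.37 (SE; edgeR, adjusted p = 0.449; exact permutation p = 0.167), and the estimate was 0.26 without GW2580 3. Pdgfb had an unadjusted p under 0.05 in 5 of 24 alternatives: library size alone (0.76), upper quartile factors (0.68), the filter of 10 CPM in 5 libraries (0.63), the no-exon share in the model (0.89) and without Vehicle 5 (0.83), with adjusted p of 0.195 or more in edgeR.

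Because the transcripts of these paired ligands lay on either side of 0, their ratio within each library, which is free of library scaling, was also examined. The log2 ratio of Pdgfb to Pdgfa in RPKM was -0.04, -1.06, -0.12, -0.86 and -0.35 in Vehicle 1 to 5 and 1.93, 0.09, 1.33, 1.19 and 0.25 in GW2580 1 to 5. Every Vehicle library had less Pdgfb than Pdgfa per exon length, and every GW2580 library had more. In CPM, which ignores length, Pdgfb was above Pdgfa in Vehicle 1, 3 and 5 too, and below it in Vehicle 2 and 4. The exon lengths (Pdgfb 10520 and Pdgfa 6409 bases) thus set where equality lies, but they shift every library alike. The means of the log2 ratio in RPKM were -0.49 ± 0.45 and 0.96 ± 0.77 (SD, n = 5 each), so that they differed by 1.44. This ratio was chosen after its values were seen, so it is given as a description with no test. Among all 28 pairs of the 8 genes it was the 1 pair whose groups did not overlap, which is 3.57%. Of all pairs among the 27848 tested genes with a count in every library, 2.68% had ratios without overlap, so the count of 1 does not set these 28 pairs, which share genes, apart. The difference ranged from 1.20 to 1.66 when each library was left out in turn, and it was 1.30 without Vehicle 2 and Vehicle 5, where 3 Vehicle libraries remained. For Vegfb against Vegfa the log2 ratio averaged 4.86 ± 1.42 in Vehicle and 4.23 ± 0.92 in GW2580 libraries, a difference of -0.64 with overlapping groups. This difference ranged from -1.08 without Vehicle 5 to -0.19 without Vehicle 4, and it was -0.28 without GW2580 1.

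**Figure D5:**
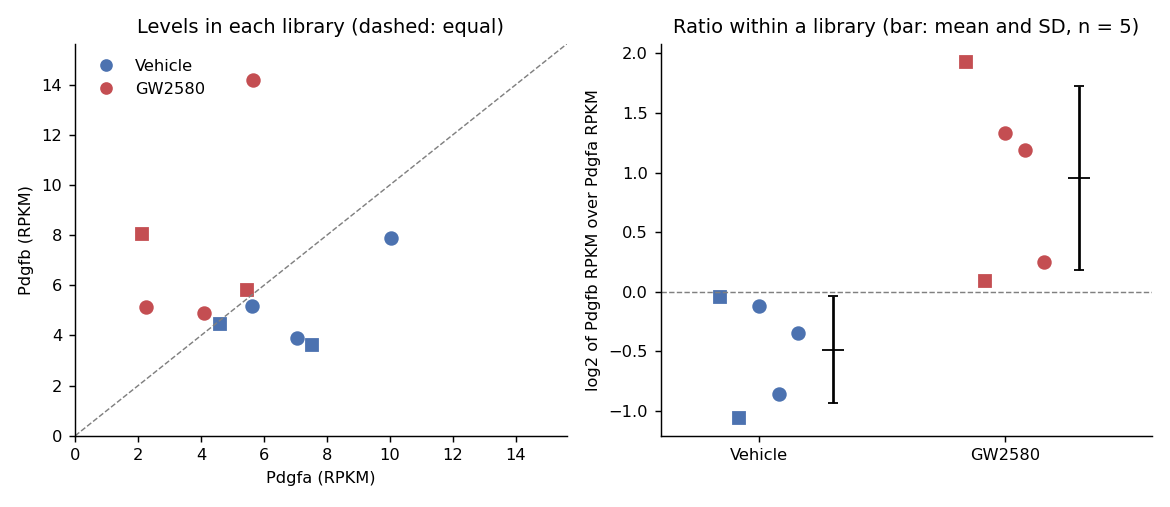
Left, Pdgfb against Pdgfa in RPKM with equality dashed. Right, the log2 ratio of the 2 within each library, with mean and SD (n = 5). The 5 Vehicle libraries (blue) lie between -1.06 and -0.04 and the 5 GW2580 libraries (red) between 0.09 and 1.93.

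The RefSeq table of GRCm38.p6 held promoters for 6 of the 8 genes, and Pdgfb and Osm had none. The 250 bases before the start of Vegfb and before the 2 starts that the table gives for Pdgfa are shown because these were the genes with an unadjusted p under 0.05. Each is written 5′ to 3′ on the strand of the gene, with capitals marking the GC box GGGCGG, the core bound by Sp and Klf factors, or its reverse complement CCGCCC. Vegfb lies at chr19:6987652-6987901, and the windows of Pdgfa at chr5:138994945-138995194 (start A) and chr5:138994282-138994531 (start B), all on the minus strand. Both Pdgfa windows lie inside the gene as annotated, which extends further upstream, to base 139000792.
Vegfb: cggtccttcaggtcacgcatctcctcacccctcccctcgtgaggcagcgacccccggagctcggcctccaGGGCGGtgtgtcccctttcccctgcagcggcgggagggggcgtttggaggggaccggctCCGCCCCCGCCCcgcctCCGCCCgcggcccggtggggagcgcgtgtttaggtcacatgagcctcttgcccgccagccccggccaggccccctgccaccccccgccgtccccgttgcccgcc
Pdgfa, start A: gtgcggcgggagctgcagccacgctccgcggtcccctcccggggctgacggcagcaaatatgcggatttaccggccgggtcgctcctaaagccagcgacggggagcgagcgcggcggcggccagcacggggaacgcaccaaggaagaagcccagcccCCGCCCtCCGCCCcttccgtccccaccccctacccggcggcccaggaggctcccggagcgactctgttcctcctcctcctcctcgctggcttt
Pdgfa, start B: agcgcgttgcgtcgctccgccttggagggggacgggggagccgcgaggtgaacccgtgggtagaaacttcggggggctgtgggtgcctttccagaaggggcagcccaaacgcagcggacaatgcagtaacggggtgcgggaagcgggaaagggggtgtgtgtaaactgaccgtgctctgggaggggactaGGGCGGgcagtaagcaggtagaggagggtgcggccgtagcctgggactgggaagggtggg

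The Vegfb promoter held 4 GC boxes, at positions -180, -121, -115 and -104 from the start, and its 76.4% GC was above that of 97% of the 32851 promoters in the table, whose median was 52.4%. Pdgfa held 2 GC boxes before start A, at -93 and -86, and 1 before start B, at -60. At least 1 GC box was found in 32.7% of all 250-base windows. None of the 3 windows held the TATA box TATAAA (12.4% of all windows), the hypoxia response core ACGTG (16.6%), the AP-1 site TGAGTCA (4.46%), the cAMP response element TGACGTCA (1.55%) or the PU.1 site GAGGAAGT (2.44%), each searched on both strands.

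Igf1 (NCBI gene 16000, chr10:87858265-87937047, plus strand) encodes insulin-like growth factor 1, a survival factor for neurons and oligodendrocytes that binds IGF1R. Igf1 was at 17.2, 15.0, 18.4, 24.4 and 10.1 CPM in Vehicle 1 to 5 and at 23.3, 19.6, 21.6, 15.9 and 21.9 CPM in GW2580 1 to 5. The highest and the lowest of the 10 values were both Vehicle libraries, and the lowest, Vehicle 5, was also the library with the lowest microglial marker sum. The means were 17.0 ± 5.22 and 20.4 ± 2.89 CPM (SD, n = 5 each), with a log2 fold change of 0.27 ± 0.29 (SE; edgeR, adjusted p = 0.676; exact permutation p = 0.214) and a 95% interval of -0.35 to 0.89. The estimate ranged from 0.13 without Vehicle 5 to 0.43 without Vehicle 4 when single libraries were left out. It was 0.02 without Vehicle 2 and Vehicle 5, and 0.49 with library size alone as the scaling.

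Osm (NCBI gene 18413, chr11:4236785-4241026, plus strand) encodes oncostatin M, a cytokine of the interleukin-6 family made by myeloid cells. Osm measured 156, 92.0, 64.7, 61.0 and 72.2 CPM in Vehicle 1 to 5 and 137, 223, 145, 52.2 and 54.4 CPM in GW2580 1 to 5. GW2580 2 was the highest and GW2580 4 and 5 the lowest, so the Vehicle libraries lay inside the GW2580 range. The log2 fold change was 0.46 ± 0.44 (SE; edgeR, adjusted p = 0.638; exact permutation p = 0.508) with a 95% interval of -0.50 to 1.41. It was 0.13 without GW2580 2, 0.75 without Vehicle 1 and 0.80 with the share of fragments on no exon in the model. In a model with sex and treatment, Osm was 1.00 higher in males on the log2 scale (edgeR, adjusted p = 1), with an unadjusted p under 0.05, as 2.02% of tested genes had. All 4 male libraries were at or above 92.0 CPM, and 5 of 6 female libraries were at or below 72.2 CPM, with GW2580 3 at 145 CPM the exception. Monocyte and neutrophil markers summed highest in the male libraries Vehicle 1 (18333 CPM) and GW2580 2 (5603 CPM), but next in the female GW2580 5 (4586 CPM), where Osm was among the lowest. The males Vehicle 2 and GW2580 1 were at 4371 and 2425 CPM, and the female GW2580 3, high in Osm, was at 1277 CPM. The part of these cells in the difference was not tested.

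Hgf (NCBI gene 15234, chr5:16553495-16619439, plus strand) encodes hepatocyte growth factor, the ligand of MET. Hgf was low, at 6.78, 3.50, 4.84, 4.88 and 5.06 CPM in Vehicle 1 to 5 and 8.88, 5.60, 4.83, 4.17 and 5.48 CPM in GW2580 1 to 5. GW2580 1 was the highest and Vehicle 2 the lowest, and the remaining libraries overlapped. The log2 fold change was 0.21 ± 0.30 (SE; edgeR, adjusted p = 0.764; exact permutation p = 0.492), with a 95% interval of -0.44 to 0.86, and it was 0.01 without GW2580 1 and 0.34 without Vehicle 1. Hgf shares 146 exon bases with Gm31113 on the opposite strand, and the counting ignored strand, but Gm31113 had at most 4 counts in a library.

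Bdnf (NCBI gene 12064, chr2:109674700-109727043, plus strand) encodes brain-derived neurotrophic factor, the ligand of TrkB, and was the lowest of the 8 per exon length. It measured 5.92, 7.35, 6.85, 12.5 and 2.47 CPM in Vehicle 1 to 5 and 4.26, 7.71, 3.44, 7.48 and 8.67 CPM in GW2580 1 to 5. The highest value was in Vehicle 4 and the lowest in Vehicle 5. The log2 fold change was -0.15 ± 0.41 (SE; edgeR, adjusted p = 0.878; exact permutation p = 0.913), with a 95% interval of -1.03 to 0.72, and its sign changed without Vehicle 4 (0.16).

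Single libraries recurred among the extremes. Vehicle 5 held the highest Pdgfa and Vegfa and the lowest Igf1 and Bdnf of the 10 libraries, and Vehicle 2 the highest Vegfb and the lowest Pdgfb and Hgf. Vehicle 4 held the highest Bdnf and Igf1 and the lowest Vegfa, and GW2580 1 the highest Hgf and the lowest Pdgfa and Vegfb. The treatment effect was not found to differ between males and females for any of the 8 genes, as each interaction had an adjusted p = 1.00 in edgeR, while 2.52% of tested genes had an interaction p under 0.05. With only 2 males per group, interactions of this size were measured with little precision.

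Among the 10939 tested genes with a mean of at least 10 CPM, those whose centred log2 CPM followed each gene most closely over the 10 libraries were found by root mean square difference. Vegfb was followed by Ube2m and Hras (0.20 and 0.21, against 0.82 for the spread of Vegfb itself), and Pdgfa by Pex16 and Naxd (0.14 and 0.15, against 0.68). Arsk and Ddx5 came nearest to Pdgfb (both 0.11, against 0.56), and Gatad2b and Dcaf17 to Igf1 (0.14 and 0.15, against 0.36). For Osm these were Lta4h and Plbd1 (0.19 and 0.28, against 0.70). Vegfa was followed by Pgap6 and Gpc1 (0.35 and 0.39, against 1.08), Bdnf by Gm33721 and Gm30446 (both 0.24, against 0.64) and Hgf by Cp and Hecw1 (0.22 and 0.23, against 0.34).

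Per exon length, the receptors of these ligands ranged from a mean of 0.523 RPKM for Ngfr to 15.6 RPKM for Il6st. Of 17 receptor genes tested, 1 was called, lower with GW2580, which is 5.88% against 6.7% of all tested genes, and the median log2 fold change was 0.13, against -0.03 over all tested genes. The called gene was Ntrk2, the TrkB receptor of BDNF, with means of 140 ± 224 CPM in Vehicle and 36.2 ± 13.5 CPM in GW2580 libraries (log2 fold change -1.95, edgeR adjusted p = 0.315), and 535 of its CPM were in Vehicle 5. Without Vehicle 2 and Vehicle 5, Ntrk2 was not called and Il6st, encoding gp130, was called higher. That is 1 of 17, where 1397 of all 27463 tested genes were called higher. Lifr, which pairs with gp130, was at 34.1 ± 6.78 and 63.3 ± 32.3 CPM (0.89, edgeR adjusted p = 0.292, under 2-fold but with an unadjusted p under 0.05). Osmr, encoding the oncostatin M receptor, was at 12.6 ± 5.28 and 13.9 ± 2.13 CPM (0.14, edgeR adjusted p = 0.860) and was not called. The receptor transcripts of highest mean RPKM were Il6st (15.6 RPKM), and Sort1, encoding sortilin (11.6 RPKM). Among the receptors of PDGF and VEGF ligands, those that mark oligodendrocyte precursors, mural cells and endothelium stood at 1.25 RPKM for Pdgfra, 1.43 for Pdgfrb, 1.32 for Flt1 and 2.57 for Kdr, and none of these 4 was called. The neuropilin genes Nrp1 and Nrp2 were higher, at 9.01 and 5.68 RPKM. Their log2 fold changes were 0.70 and 0.13, and neither was called.

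Among 23 genes for proteins that bind or process the ligands, 5 were called, all lower with GW2580 (21.7%, against 6.7% of all tested genes), at a median log2 fold change of -0.17 against -0.03. They were the IGF binding protein genes Igfbp2 (-3.41), Igfbp5 (-1.65), Igfbp6 (-1.93) and Igfbp7 (-2.21), and Spint2, a Kunitz-type inhibitor of HGF-activating proteases (-2.94). Igfbp2 was at 2087 CPM in Vehicle 5 and at 16.5 to 134 CPM in the other 9 libraries, and the whole list summed to 3441 CPM in Vehicle 5 against 386 to 913 CPM elsewhere. Without Vehicle 5 alone, Igfbp6, which was highest in Vehicle 2 (25.2 CPM), was still called lower. This is 4.35% of 23, against 6.74% of all tested genes. St14 was called higher there, as were 1739 of all 28120 tested genes. None of the 5 genes called with all libraries was called without Vehicle 2 and Vehicle 5, where Htra1 and St14, which encode serine proteases, were called higher. These are 2 of 23, where 1397 of all 27463 tested genes were called higher. By mean RPKM the most abundant were Igfbp2 (177 RPKM, but 34.6 without Vehicle 5) and Spint1, the paralogue of Spint2 (63.9 RPKM, and 65.6 without Vehicle 5), the latter with a log2 fold change of 0.63 (edgeR, adjusted p = 0.455).

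Family relatives of the 8 genes were listed as 16 genes, of which 13 passed the filter on low counts and 5 were called, all lower (38.5%, against 6.7% of all tested genes), with a median of -0.53 against -0.03. The called genes were Igf2 (-3.62), Ctf1 (-3.53), Pdgfc (-1.70), Ntf5 (-1.35) and Il11 (-1.15), which encode an insulin-like growth factor, cardiotrophin-1, PDGF-C, neurotrophin-4/5 and interleukin-11. The list summed to 50.1, 109, 65.1, 85.4 and 902 CPM in Vehicle 1 to 5 and to 44.9 to 69.1 CPM in the GW2580 libraries, so Vehicle 1 and 3 lay within the GW2580 range. Igf2 was at 766 CPM in Vehicle 5 and at 4.54 to 48.9 CPM elsewhere, and its mean of 16.8 RPKM was 3.73 without that library. Il6, at a mean of 7.12 RPKM, was at 8.29 and 7.95 CPM (log2 fold change -0.06, edgeR adjusted p = 0.937). Without Vehicle 5 the calls were Igf2, Ctf1, Il11 and Mst1, all lower. This is 30.8% against 6.74% of all tested genes, at a median of -0.68 against 0.05. Without Vehicle 2 and Vehicle 5 the 1 call of 12 tested was Il11, lower. This is 8.33% against 3.42%, at a median of -0.42 against 0.07.

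Genes of the hypoxia response, including those of HIF subunits, were listed because Vegfa is induced by hypoxia. Of these, 1 of 14 was called, Epas1, encoding HIF-2α (-1.55, edgeR adjusted p = 0.305), which is 7.14% against 6.7% of all tested genes. Ldha (-0.34) and Pgk1 (-0.997) had the highest mean RPKM (58.9 and 53.3, or 51.1 and 35.7 without Vehicle 5, where P4ha1 was at 45.3) and neither was called, and P4ha1 was at 0.84 (edgeR adjusted p = 0.316), under 2-fold but with an unadjusted p under 0.05. None of the 14 was called without Vehicle 2 and Vehicle 5. Of 10 genes known from Igf1-rich microglia of development and injury, 2 were called lower, Fabp5 (-2.22) and Cst7 (-1.08), which is 20% against 6.7% of all tested genes, at a median of -0.31 against -0.03. Cd9 and Lgals3, the most abundant of them, had log2 fold changes of -0.43 and -1.13 and were not called. Without Vehicle 2 and Vehicle 5, Fabp5 was no longer called and Spp1, Cst7 and Lgals3 were called lower, 3 of 10 against 3.42% of all tested genes, at a median of -0.57 against 0.07. In that setting 3 of 12 monocyte and neutrophil markers were also called lower (median -1.32), and Spp1, Cst7 and Lgals3 were highest in Vehicle 1 (48.9, 34.0 and 367 CPM), the library with the highest sum of those markers, whose part in these calls was not tested.

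Marker genes of other cells were compared in the same way. All 8 astrocyte markers and all 7 tested oligodendrocyte markers had a negative log2 fold change, with medians of -1.60 and -2.19, and 2 and 4 of them were called lower. These are 25% and 57.1%. Of all tested genes, 6.7% were called lower and 4.01% higher, at a median of -0.03, for comparison with each list here. Without Vehicle 2 and Vehicle 5 the astrocyte and oligodendrocyte medians were 0.79 and 0.64, with 1 and 3 called higher. In that setting 1397 of all 27463 tested genes were called higher and 938 (3.42%) lower, at a median of 0.07. For neurons 7 of 8 were negative (median -0.86), with 1 called lower, and without those libraries 2 were called higher (median 0.30). For monocytes and neutrophils 8 of 12 were negative (median -0.92), with 1 called lower, and without those libraries 3 were called lower (median -1.32). Microglial markers had a median of 0.45 with 1 of 12 called, Cx3cr1, higher, and border macrophage markers a median of 0.91 with 1 of 7 called, Mrc1, higher. No microglial marker was called without Vehicle 2 and Vehicle 5, and 3 of 7 border macrophage markers were, Cd163 and F13a1 higher and Ms4a7 lower (median 0.75). Oligodendrocyte precursor markers had 1 of 6 called lower, and none was called among 7 endothelial, 8 mural and 12 early response genes. Fragments outside every annotated exon made up 43.5 ± 4.26% of records in Vehicle and 50.4 ± 8.49% in GW2580 libraries (SD, n = 5 each). With that share in the model, chosen after seeing the data, the log2 fold changes of Vegfb and Pdgfa were -0.48 and -0.47 and neither had an unadjusted p under 0.05, and that of Pdgfb was 0.89 (edgeR, adjusted p = 0.656), with an unadjusted p under 0.05.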

How the data were processed

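Microglia were isolated with Accutase, Percoll and CD11b+ magnetic selection, and RNA was sequenced as 150 nt read pairs. The authors trimmed reads with Trimmomatic 0.33, aligned them with STAR 2.6.0 to GRCm38 and counted unique fragments on RefSeq exons without strand, with featureCounts 1.6.3 per the file headers. The deposited values are raw fragment counts per gene and per counting class. Symbols were matched for 46029 of 46152 genes in the RefSeq GRCm38.p6 table.

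The 28419 genes that exceeded 1 CPM in 3 or more libraries were scaled with TMM and tested in edgeR 4.0.16 (R 4.3.3) with treatment as the only term, all 10 libraries entering the fit. Genes were called, by the study's criterion, at more than 2-fold with an unadjusted p under 0.05. Adjusted p-values are Benjamini-Hochberg over all tested genes, SE is the log2 fold change over the root of F, and 95% intervals use the F test's degrees of freedom. Exact permutation tests were two-sided over 252 splits of log2 CPM with a prior count of 2. RPKM used the deposited gene lengths. The scripts were tested on simulated data. The 8 genes and the gene lists were chosen with earlier results of these data known. Named genes were the 8, up to 5 called and the 2 of highest mean RPKM per pathway list, the 2 nearest genes per member, and the leading markers. Genes called with libraries left out were named too, as were some uncalled genes, such as Lifr, P4ha1 and the receptors of PDGF and VEGF ligands. Alternatives were other scalings, filters and tests (DESeq2 1.42.0, limma 3.58.1), sex, a replicate block, marker covariates and left-out libraries. Intervals and p-values rest on 5 mice per group, and the reads carry no molecular identifiers. Figures were drawn with matplotlib 3.10.9 in Python 3.11.15.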

Additional observations from a re-analysis of the deposited data

Results flagged for a closer look

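Vegfa in Vehicle 5 was far from the other 4 Vehicle libraries, at 55.3 CPM against 2.87 to 14.0 CPM. The gap to the nearest was 0.788 of the whole range, above the critical value of 0.71 for 5 samples. On the log2 CPM scale the same gap was 0.468 of the range, below that value. It was the 1 value of this kind among 16 groups of 5 tested, and chance gives about 1 in 20.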

How the results depend on the processing

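Counts of genes called over all tested genes moved from 3046 (1141 higher, 1905 lower) to 4610 with DESeq2 on 44086 unfiltered genes, so that test and filter changed together, 4802 in edgeR without a filter, 555 with a filter of 10 CPM in 5 libraries, which tests fewer genes, and 1181 with the share of fragments on no exon in the model, and ranged from 1684 (without GW2580 1) to 4848 (without GW2580 5) when single libraries were left out. The split of higher and lower calls was 2123 and 875 with library size alone and 1196 and 1230 with upper quartile factors, and the median log2 fold change of all tested genes was 0.23 with library size alone and -0.03 with TMM. Of the 8 growth factor genes, 0 were called with upper quartile factors, library size alone, limma-voom, the replicate block, the glial and neuronal marker covariate, the no-exon share, or without Vehicle 2 and Vehicle 5, and 0 to 1 when single libraries were left out. In edgeR, or limma for voom, the numbers with an unadjusted p under 0.05 were then 3, 3, 2, 2, 0, 1 and 0, and Vegfb was at -0.96, -0.88, -0.94, -0.97, -0.61, -0.48 and -0.33, the first 4 of these with an unadjusted p under 0.05 and a fold under 2, while the cause of the other 3 was not tested. Vegfa changed sign with the glial and neuronal marker covariate (0.10) and without Vehicle 2 and Vehicle 5 (0.48), and ranged from -1.23 to 0.13 when single libraries were left out. Bdnf changed sign with library size alone (0.14), and ranged from -0.37 to 0.16 when single libraries were left out, with 0.0019 without GW2580 3. Igf1, Pdgfa, Pdgfb, Vegfb, Osm and Hgf kept their direction in every alternative run. Same-numbered libraries of the 2 groups had correlations of -0.39 to 0.13 in their deviations from the group means, and none matched its own number best. These correlations run over all tested genes and take in differences of single libraries such as Vehicle 5. They therefore cannot settle whether the numbers pair the mice. With the replicate block edgeR called 2554 genes, and with the glial and neuronal marker covariate 2270. It called 2335 without Vehicle 2 and Vehicle 5, and limma-voom called 3016 with all libraries. Besides the no-exon share and the monocyte and neutrophil covariate, the alternatives were listed with the design, and these 2, the left-out libraries for the ligand ratios and those for the gene lists were added after seeing the data. Hgf, at 50 to 173 counts per library, and Bdnf, at 44 to 218, have the largest counting errors.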
